A study of Saccharomyces cerevisiae with 72 samples.

Results

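In budding yeast cells driven into meiosis by copper, 568 of 5424 coding sequences (10.5%) formed a pulse: their mRNA stood higher 1 h after copper than just before it, and was lower again 1 h later. These 568 genes included 39 of 54 listed genes of the G1/S program of DNA replication, and genes of cohesin, histone assembly and the secretory pathway. They were chosen from the mean TPM (a transcript level corrected for gene length and library total) of 3 wild-type UME6 libraries at each time. A gene was taken when log2((TPM at 3 h + 1)/(TPM at 2 h + 1)) was at least 1, the same ratio over 4 h was at least 0.8, and its mean at 3 h was at least 20 TPM. Copper was added 2 h after transfer to sporulation medium (SPO), so that 3 h and 4 h in SPO are 1 h and 2 h after copper. The wild-type values at 2, 3 and 4 h are therefore a description of how the genes were picked, and no test of them is given. A further 1892 coding sequences met the rise and the level but not the fall, and they serve as the nearest comparison.

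Both strains sampled over time were SK1 diploids with 3HA-tagged IME1, and with IME4, under the copper-inducible CUP1 promoter, and were given 50 µM CuSO4. UB22629 carried UME6(T99N)-3V5 and an IME4 allele with no tag, with 3 libraries each at 0, 2, 3 and 4 h in SPO, and UB20649 carried wild-type Ume6-3V5 and 3HA-tagged IME4, with 3 libraries at each of the same times, so the strains differ at IME4 as well as at UME6. The T99N change blocks the contact between Ume6 and Ime1. Another strain, UB14584, also with copper-driven IME1 and IME4 and with the AMN1 allele of BY4741, gave 2 poly(A) RNA libraries and 4 TL-seq (transcript leader sequencing, which reads the 5′ ends of mRNAs) libraries at each of 4 h and 2 h, of which the 3 in 1 deposited table (replicates 1, 3 and 5) were tested, and Ume6 ChIP-seq came from 3 samples of strain UB3301 grown to saturation in rich presporulation medium (BYTA). The labels do not say whether replicates are separate cultures, so each p-value measures the spread between these libraries. RNA came from whole cultures, so fewer cells with a transcript and less transcript per cell cannot be told apart.

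Entry into meiosis is controlled by Ime1, which binds Ume6 on the URS1 element and turns that repressor into an activator of early meiotic genes. Meiotic cells then copy their DNA once, before recombination. In dividing cells, the genes for S phase are switched on in late G1 by MBF (Mbp1 with Swi6), which binds the MCB element, and by SBF (Swi4 with Swi6), which binds the SCB element. The products include the replicative polymerases, the enzymes that make deoxynucleotides, the histones that package new DNA and the cohesin rings that hold sister chromatids together.

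The MCB core, the letters ACGCGT read on both strands, was found more often in these promoters than in others. It lay in the 300 bases before the start codon of 122 of 567 members matched to a RefSeq locus (21.5%), against 33 of 1888 genes that rose without the fall (1.75%) and 199 of all 5372 promoters (3.70%). The 6 windows below, of 30 bases each, belong to the 6 G1/S genes with the largest wild-type rise among those with 2 cores in the window, and come from the S288C R64 reference as annotated by RefSeq, written 5′ to 3′ on the coding strand with MCB cores in capitals. CDC21 encodes thymidylate synthase, POL1 and POL12 are subunits of DNA polymerase alpha, ASF1 is a histone chaperone, CDC45 is part of the replicative helicase and RFA2 is a subunit of the single-strand binding complex RPA. A match is a description of these letters and not evidence that a factor was bound.
CDC21 (chrXV:467693-467722, minus strand): agaccttaattgACGCGTttcctgaaatat
POL1 (chrXIV:429902-429931, plus strand): cctataagtaaaACGCGTcgcgtgtatcca
ASF1 (chrX:196095-196124, plus strand): ttctcatcctaaACGCGTaaatctgttccc
CDC45 (chrXII:346074-346103, minus strand): acatatcatctaACGCGTtttaagaaattt
RFA2 (chrXIV:48167-48196, plus strand): ACGCGTtaggaaACGCGTtctttcctttat
POL12 (chrII:153792-153821, minus strand): ttttttaccgtgACGCGTctcaccagagtt
The core nearest the start codon begins 121, 173, 180, 150, 108 and 199 bases before it, in the order listed.

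Sequencing depth was 5013206 to 10368419 estimated counts in T99N libraries and 9087102 to 20865934 in wild-type libraries. The driver genes were checked against the labels. IME1 stood at 1163, 2631 and 2353 TPM in T99N at 3 h, against 525, 716 and 1209 TPM in wild type at 3 h. At 2 h, before copper, it stood at 1357, 45.4 and 51.3 TPM in T99N, so the library labelled T99N 2 h replicate 1 had IME1 on. The copper metallothionein CUP1-2 was likewise at 30651 TPM in that library, against 970 and 1081 TPM in the other 2 T99N libraries of 2 h. The library labelled T99N 3 h replicate 1 stood apart in the other direction, with the copper importer gene CTR1 at 89.8 TPM, against 11.18 and 11.96 TPM in the other 2 of its group. Counts of members called in T99N are therefore given with all 12 libraries and again with the 10 that remain without those 2, a step chosen after the data were seen. For single genes the value from the 10 is given where the call changed or the fold moved by over 1.5 times. The wild-type libraries of 3 h, which chose the members, were uneven too. CUP1-2 stood there at 112738, 91565 and 36116 TPM, which is 11.3, 9.16 and 3.61% of all TPM. With replicate 3 left out of the rule, 583 genes met it and 503 of them were members.

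Members as a set stood highest in the wild-type libraries of 3 h, those that chose them, and stayed within a narrower range in T99N. Their median was 25.4, 25.9 and 23.5 TPM in T99N at 0 h, 39.1, 27.7 and 24.6 TPM at 2 h, 39.4, 38.6 and 48.9 TPM at 3 h, and 39.99, 38.1 and 36.1 TPM at 4 h. In wild type it was 18.3, 17.0 and 19.4 TPM at 0 h, 19.9, 15.4 and 16.9 TPM at 2 h, 72.5, 71.6 and 87.2 TPM at 3 h, and 28.0, 30.4 and 37.6 TPM at 4 h. The libraries of wild type at 3 h do not overlap those of any other group. In 532 of the 568 members, every wild-type library of 3 h lay above every one of 2 h and 4 h, which was also so for 1271 of the 4856 other coding sequences. Together the members took 4.26 to 5.50% of all TPM in T99N at 3 h and 8.69 to 9.67% in wild type at 3 h.

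**Figure D1:**
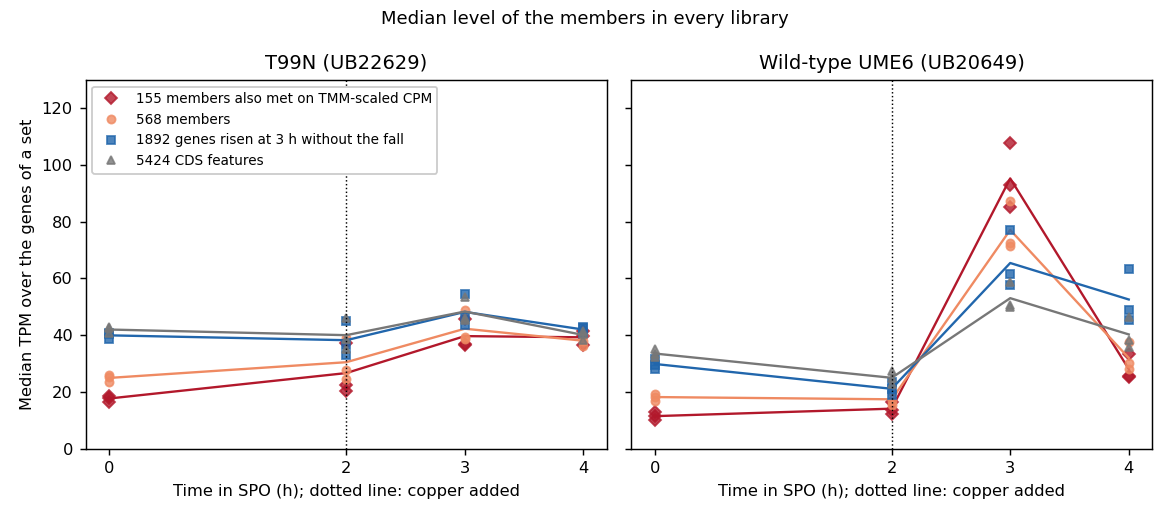
Median TPM over each set of genes (y axis) in every library (points), with lines through the group means, against hours in SPO (x axis), T99N on the left and wild-type UME6 on the right. The 568 members lie between 71.6 and 87.2 TPM in wild type at 3 h and between 38.6 and 48.9 TPM in T99N at 3 h, and the wild-type medians of all coding sequences also rise at 3 h.

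The scale matters for these genes. In wild type the median coding sequence itself was higher by 0.99 (log2) at 3 h than at 2 h in TPM and by 0.35 at 3 h than at 4 h, while on CPM scaled by TMM (counts relative to library totals after edgeR's trimmed-mean scaling) those medians were 0.04 and -0.03. Members had a median log2 ratio of 1.89 for 3 h over 2 h and 1.09 for 3 h over 4 h in TPM, and of 0.95 and 0.71 on TMM-scaled CPM. Of the 568, 567 were higher at 3 h than at both 2 h and 4 h on the TMM scale (99.8%), against 991 of the other coding sequences (20.4%). These are the same wild-type libraries that chose the members. The medians of all coding sequences moved between the scales by less than the thresholds, so this outcome was largely fixed by the selection. The count is a description and no support for the peak. The thresholds for the rise and the fall were met on the TMM scale by 155 genes, all of them members, with the level threshold kept in TPM. Those 155 are a stricter cut of the set and are called below the members that met the rule on both scales. Their promoters held the MCB core in 75 cases (48.4%).

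The thresholds cut through a continuous range. Just inside the rise were GPR1, HOC1 and HLR1 with log2 ratios of 1.00, 1.00 and 1.02, and just outside were FYV6, ATG38 and SCP160 with 0.99 each. At the limit for the fall, MAD2, ROT1 and GAA1 were taken and COG8, NBA1 and SEC63 were not, all at 0.80. At the limit for the level, DXO1, AYT1 and BCD1 were taken at 20.5, 20.9 and 21.2 TPM, while TRL1, DCD1 and AVO1 stayed out at 19.6, 19.6 and 19.3 TPM. With the median of the 3 replicates in place of the mean, 609 genes met the rule and 515 of them were members. With both ratios required in each replicate number alone, 351 were left. Members lay on all 16 chromosomes, and their median coding length of 1266.5 bases was close to the 1265 bases of all coding sequences.

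DNA replication genes were the largest listed group in the pulse. Of 54 genes on a list of the G1/S program, 39 were members, and 26 of those 39 were among the 155 that met the rule on both scales. That list was chosen with earlier results of these data known, so its count is a description too. The list members were RNR1, CDC21, the subunits of polymerases alpha, delta and epsilon, primase, RPA, PCNA, the MCM helicase, the S-phase cyclins CLB5 and CLB6 and the cohesin genes SMC1, SMC3 and MCD1 among others. The 15 that were not members included the regulators themselves (SWI4, SWI6, MBP1, NRM1), the G1 cyclins CLN1, CLN2 and CLN3, and the small ribonucleotide reductase subunits RNR2 and RNR4. A second list of replication fork genes, drawn up after the data were seen and so only a description, had 30 members among 37 measured.

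RNR1, the large subunit of ribonucleotide reductase (SK1 chrV:318358-321024, plus strand), reached its highest T99N level at 4 h. In T99N it stood at 75.8, 21.5 and 18.6 TPM at 2 h, 63.9, 96.4 and 78.8 TPM at 3 h, and 267, 282 and 268 TPM at 4 h. In wild type it stood at 26.7, 24.9 and 27.9 TPM at 2 h, 413, 523 and 389 TPM at 3 h, and 88.5, 85.3 and 67.8 TPM at 4 h. At 4 h all 3 T99N libraries were above every wild-type library, and at 3 h all 3 were below. Within T99N, where the selection used no value, RNR1 was higher at 4 h than at 2 h by 2.91 (log2, SE 0.37, edgeR adjusted p = 0.00056) and than at 3 h by 2.01 (SE 0.35, edgeR adjusted p = 0.0025). Without the 2 doubted libraries these were 3.69 and 1.90. RNR1 lost the second call without replicate 3 (1.92, edgeR adjusted p = 0.071).

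POL1, the catalytic subunit of DNA polymerase alpha (SK1 chrXIV:433308-437714, plus strand), also went up in T99N, by less. It stood there at 29.9, 10.1 and 8.28 TPM at 2 h, 27.6, 30.3 and 37.5 TPM at 3 h, and 40.7, 41.6 and 36.7 TPM at 4 h. In wild type it stood at 7.47, 4.98 and 5.72 TPM at 2 h, 133, 135 and 147 TPM at 3 h, and 21.1, 21.8 and 22.95 TPM at 4 h. The wild-type peak is 1 of the 10 largest rises and also 1 of the 10 largest falls among members. In T99N, 4 h was above 2 h by 1.38 (log2, SE 0.29, edgeR adjusted p = 0.0053), and 2 h was above 0 h by 2.21 (SE 0.31, edgeR adjusted p = 0.00012). The 2 h group holds the library with IME1 on, where POL1 was at 29.9 TPM, and without the doubted libraries the values were 2.04 (SE 0.10, edgeR adjusted p = 5.5e-09) and 1.55 (SE 0.10, edgeR adjusted p = 5.7e-08). The first lost its call without replicate 2 or 3 (edgeR adjusted p = 0.13 and 0.11).

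CDC21 averaged 110 ± 12.6 TPM in T99N at 3 h and 379 ± 53.0 TPM in wild type at 3 h (SD, n = 3 each). At 4 h it averaged 116 ± 6.27 TPM in T99N and 70.7 ± 11.3 TPM in wild type. The T99N libraries of 4 h, at 111 to 123 TPM, lay above the wild-type ones, at 60.4 to 82.8 TPM. In T99N, 4 h was above 2 h by 1.198 (log2, SE 0.36, edgeR adjusted p = 0.026), and by 2.09 without the doubted libraries (edgeR adjusted p = 1.1e-07). CDC21 lost that call without replicate 2 or 3 and on library totals alone (edgeR adjusted p = 0.057).

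The S-phase cyclins CLB5 and CLB6, which activate Cdc28 for replication, have no MCB core in the window and a Ume6 ChIP peak near their start site. CLB5 stood at 27.9, 31.8 and 40.7 TPM in T99N at 3 h, against 126, 129 and 197 TPM in wild type. At 4 h it stood at 53.3, 67.7 and 59.4 TPM in T99N, against 55.9, 64.6 and 98.2 TPM in wild type, where the groups overlap. CLB5 was higher in T99N at 4 h than at 3 h by 1.10 (log2, SE 0.15, edgeR adjusted p = 0.00048) and than at 2 h by 1.61 (SE 0.15, edgeR adjusted p = 0.0001). CLB6 was lower throughout, with 4.46 ± 0.30 TPM in T99N at 3 h and 27.9 ± 2.32 TPM in wild type at 3 h (SD, n = 3 each). TOS4, a forkhead-associated domain protein of the G1/S regulon, likewise averaged 15.1 ± 3.14 TPM in T99N and 161 ± 26.7 TPM in wild type at 3 h.

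Other replication genes followed the same course in wild type and were called in T99N to different degrees. The primase gene PRI2 was higher in T99N at 4 h than at 2 h by 1.21 (log2, edgeR adjusted p = 0.0056), the PCNA gene POL30 by 1.68 (edgeR adjusted p = 0.0011), and RFA1, the large RPA subunit, by 1.16 (edgeR adjusted p = 0.0044). PRI2 and RFA1 lost the call without replicate 2 or 3, and POL30 without replicate 3 (edgeR adjusted p = 0.056). RAD27, the flap endonuclease, did not pass with all libraries (0.56, edgeR adjusted p = 0.084) and did without the doubted ones (0.91, edgeR adjusted p = 0.0012). PCL2, a cyclin of the Pho85 kinase, gave no call there (-0.08, edgeR adjusted p = 0.65), with 28.1 ± 1.51 TPM in T99N and 87.7 ± 3.83 TPM in wild type at 3 h (SD, n = 3 each). ORC5, a subunit of the origin recognition complex, had a wild-type fall among the 10 largest (82.7 ± 17.3 TPM at 3 h, 11.8 ± 2.81 TPM at 4 h) and gave no call in T99N for 4 h over 2 h (0.24, edgeR adjusted p = 0.22).

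**Figure D2:**
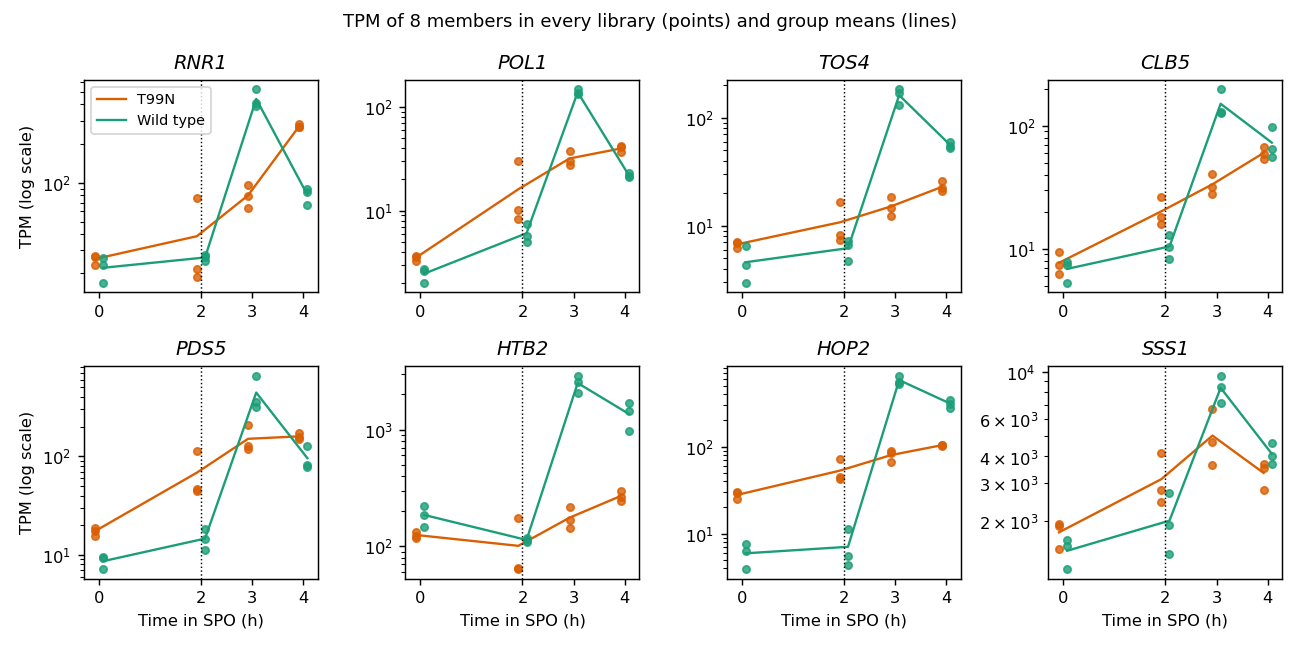
TPM (y axis, log scale) of 8 members in every library (points) with group means (lines) against hours in SPO, T99N in orange and wild-type UME6 in green, copper added at the dotted line. RNR1 reaches 267 to 282 TPM in T99N at 4 h, when wild type is back at 67.8 to 88.5 TPM, while HOP2 and HTB2 lie below their wild-type levels in T99N at 3 h and 4 h.

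Cohesin genes were part of the pulse as well. Of 12 listed cohesin genes, 8 were members (PDS5, SMC3, SMC1, IRR1, RAD61, ECO1, MCD1 and SCC4), on a list drawn up after the data were seen. SMC3, a core ring subunit, stood at 91.0, 21.9 and 23.8 TPM in T99N at 2 h, 74.2, 102 and 118 TPM at 3 h, and 106, 112 and 107 TPM at 4 h. In wild type it stood at 15.0, 9.42 and 11.5 TPM at 2 h, 208, 223 and 325 TPM at 3 h, and 62.9, 55.2 and 69.0 TPM at 4 h. PDS5, a cohesin regulator with a Ume6 peak near its start, had 151 ± 48.8 TPM in T99N and 443 ± 187 TPM in wild type at 3 h (SD, n = 3 each), and 159 ± 11.3 TPM in T99N and 95.8 ± 26.8 TPM in wild type at 4 h. At 3 h the T99N libraries of both genes lay below every wild-type library, and at 4 h above. For 4 h over 2 h in T99N, 6 of the 8 were called higher and none lower with all libraries (12.6% of all features were higher and 14.3% lower). The same held without the doubted ones (21.7% and 21.6%), the 2 not called being MCD1 and SCC4. Over all members, most calls of this comparison were lost without replicate 2 or without replicate 3, as given below.

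MCD1, the kleisin subunit of the mitotic cohesin ring whose meiotic counterpart is REC8, differed from SMC3 in T99N. It stood there at 8.19, 11.3 and 8.44 TPM at 2 h, 9.38, 5.54 and 6.93 TPM at 3 h, and 10.3, 10.9 and 9.80 TPM at 4 h, against 3.93, 2.42 and 3.26 TPM, then 19.1, 17.7 and 29.2 TPM, then 4.91, 5.95 and 7.20 TPM in wild type at the same times. MCD1 fell by 1.00 (log2) at 3 h against 2 h in T99N without the doubted libraries (SE 0.17, edgeR adjusted p = 0.0005). With all libraries the value was -0.57 (SE 0.21, edgeR adjusted p = 0.15).

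Histone genes and their chaperones had 16 members of 25 measured on a list drawn up after the data were seen. HTB2, a histone H2B gene (SK1 chrII:250100-250495, plus strand), stood at 143, 216 and 168 TPM in T99N at 3 h, against 2565, 2892 and 2053 TPM in wild type. At 4 h it stood at 247, 299 and 262 TPM in T99N, against 1439, 1674 and 969 TPM in wild type. The T99N level thus stayed under every wild-type library at both times, and yet was higher at 4 h than at 2 h by 1.47 (log2, SE 0.26, edgeR adjusted p = 0.0024), a call lost without replicate 2 or 3 (edgeR adjusted p = 0.06 and 0.092). HHT1, a histone H3 gene, averaged 118 ± 10.6 TPM in T99N and 1489 ± 302 TPM in wild type at 3 h (SD, n = 3 each), and gave no T99N call for 4 h over 2 h with all libraries (0.13, edgeR adjusted p = 0.65) but one without the doubted ones (0.42, edgeR adjusted p = 0.036). Histone genes come as near-identical copies, so how the counts split between copies is uncertain. SPT21, which is needed for histone gene transcription, rose in T99N at 4 h over 3 h by 0.81 (SE 0.11, edgeR adjusted p = 0.00062), and missed the threshold without replicate 3 (edgeR adjusted p = 0.051).

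Early meiotic genes mostly stayed up after 3 h and so were not members. Of 35 measured, 30 rose without the fall and 3 were members, which had the 3 largest rises among members. Those 3 make 8.6% of the list, beside 10.5% of all coding sequences, and none of them met the rule on both scales. HOP2, which acts with Mnd1 in strand exchange between homologs, stood at 66.4, 84.7 and 88.2 TPM in T99N at 3 h, against 648, 556 and 527 TPM in wild type, and at 102, 104 and 105 TPM in T99N at 4 h, against 277, 308 and 345 TPM in wild type. SPO16, which promotes synapsis, stood at 290, 266 and 548 TPM in T99N at 3 h, against 419, 405 and 1127 TPM in wild type, where the groups overlap. MER1, a meiosis-specific splicing factor, averaged 5.99 ± 1.37 TPM in T99N at 3 h and 80.3 ± 17.1 TPM in wild type at 3 h (SD, n = 3 each). All 3 have a Ume6 peak near their start site. They were already higher in T99N than in wild type at 0 h, by 2.86 for SPO16, 1.91 for HOP2 and 1.87 for MER1 (log2, edgeR adjusted p = 1.2e-07, 1.1e-06 and 2.1e-05).

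Secretory genes were the other large group. These lists were drawn up after the data were seen, and they had 22 members of 38 for protein glycosylation, 15 of 28 for transport between the endoplasmic reticulum (ER) and Golgi, and 8 of 24 for entry into the ER. Of these members only 7, 6 and 1, in that order, were among the 155 that met the rule on both scales. SSS1, the gamma subunit of the Sec61 translocon and the member with the highest wild-type level, stood at 4174, 2785 and 2436 TPM in T99N at 2 h, 4685, 3668 and 6680 TPM at 3 h, and 3708, 3541 and 2799 TPM at 4 h. In wild type it stood at 2689, 1396 and 1918 TPM at 2 h, 8508, 7114 and 9571 TPM at 3 h, and 3688, 4028 and 4636 TPM at 4 h. Unlike RNR1, SSS1 had its highest T99N mean at 3 h. It was not called there, with 0.46 for 3 h over 2 h (log2, SE 0.17, edgeR adjusted p = 0.15) and -0.33 for 4 h over 3 h (SE 0.17, edgeR adjusted p = 0.21). The first was called without the doubted libraries (0.61, SE 0.19, edgeR adjusted p = 0.021).

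EMP24, a p24 cargo receptor of vesicles leaving the ER, averaged 681 ± 87.3 TPM in T99N and 1512 ± 160 TPM in wild type at 3 h (SD, n = 3 each), and 651 ± 30.1 TPM in T99N and 522 ± 28.2 TPM in wild type at 4 h. In T99N it was higher at 4 h than at 2 h by 0.76 (log2, SE 0.20, edgeR adjusted p = 0.013). PMI40, which makes mannose 6-phosphate for glycosylation, was higher by 1.34 in the same comparison (edgeR adjusted p = 0.011; 2.06 without the doubted libraries), and VRG4, the Golgi GDP-mannose transporter, by 1.10 (edgeR adjusted p = 0.0051). SBH1, the beta subunit of the Sec61 translocon, was higher by 0.85 (edgeR adjusted p = 0.0035). ALG14, which acts in the synthesis of the N-glycan precursor, was not called (0.33, edgeR adjusted p = 0.15). Without replicate 2 or without replicate 3, none of EMP24, PMI40, VRG4 and SBH1 was called.

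The remaining lists contributed few members. The cell wall and pheromone list had 3 of 29, the iron list 2 of 24, the zinc list 2 of 14, the amino acid list 2 of 50, and the oxidative stress, phosphate and glucose lists 1 each of 33, 17 and 33. No gene was a member among 36 proteasome genes, of which 35 rose without the fall, or among the measured genes of the heat shock (34), general stress (30), sulfur (39), purine (23), ribosome biogenesis (50), copper (14), middle meiotic (24), drug efflux (21) and acetate use (34) lists. All coding sequences together had 10.5%.

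**Figure D3:**
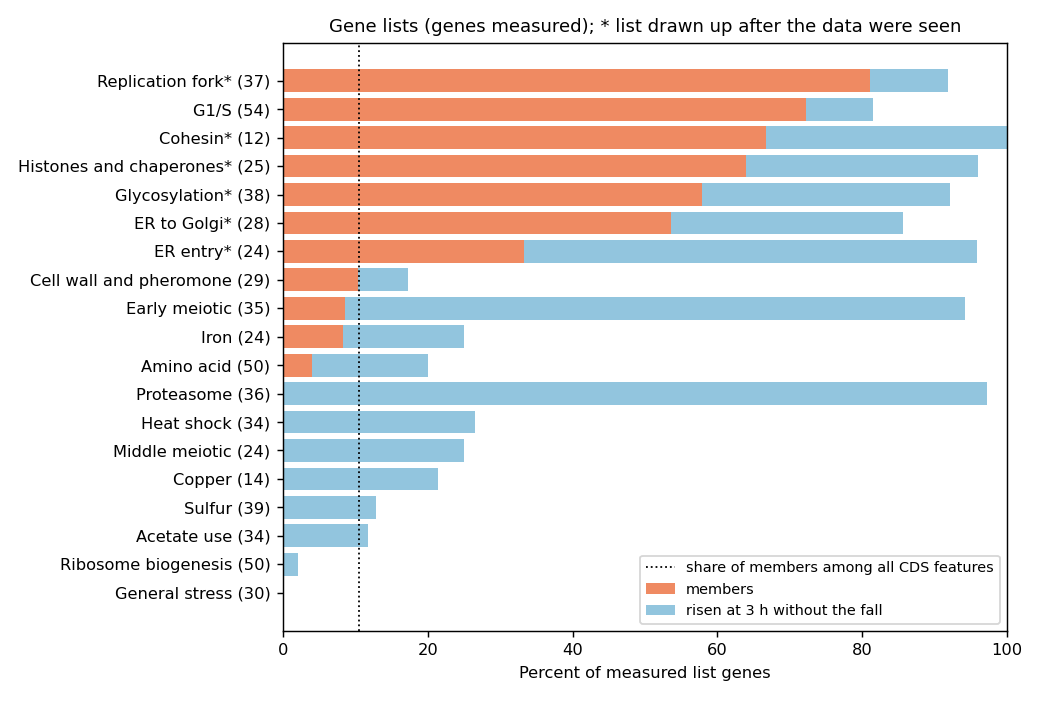
Percent of the measured genes of each list shown (x axis) that were members (orange) or rose at 3 h without the fall (blue), with the number measured in brackets. The G1/S list has 39 of 54 and the proteasome list has 0 of 36 members but 35 that rose without the fall, and the dotted line marks the 10.5% of all coding sequences.

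AGA2 and HMX1 are the members of these lists with the highest wild-type levels at 3 h. AGA2, the adhesion subunit of a-agglutinin (SK1 chrVII:435008-435271, minus strand), stood at 625, 772 and 1310 TPM in T99N at 3 h, against 4543, 2877 and 4253 TPM in wild type. Its 3′ end faces that of HOP2 (SK1 chrVII:434063-434789, plus strand), and the strand setting of the quantification is not given in the sources used here, so reads of the neighbours may not be separable. In UB14584, AGA2 had 3236 and 2957 TPM at 4 h and 21.9 and 46.0 TPM at 2 h, while its TL-seq start site changed by -0.84 (log2, SE 0.53, limma adjusted p = 0.24). HMX1, heme oxygenase, stood at 339, 553 and 451 TPM in T99N at 3 h, against 259, 348 and 497 TPM in wild type, with overlap between the strains. HMX1 was higher at 3 h than at 2 h in T99N without the doubted libraries (1.46, SE 0.17, edgeR adjusted p = 2.3e-05), but not with all (0.90, SE 0.25, edgeR adjusted p = 0.11).

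ARG3, the ornithine carbamoyltransferase of arginine synthesis, was among the 5 members with the lowest T99N ratio at 3 h. It stood at 107, 148 and 97.1 TPM in T99N at 2 h and 112, 58.7 and 87.3 TPM at 3 h, against 143, 85.1 and 83.7 TPM at 2 h and 343, 239 and 195 TPM at 3 h in wild type. The fall of ARG3 at 3 h against 2 h in T99N was called without the doubted libraries (-1.09, SE 0.17, edgeR adjusted p = 0.00027) and not with them (-0.67, SE 0.21, edgeR adjusted p = 0.11). Of the rest, AGA1 (the anchor of a-agglutinin), CHS3 (chitin synthase), AFT2 (an iron regulator), ADH4 (an alcohol dehydrogenase), ARO2 (chorismate synthase) and HXT8 (of the hexose transporter family) gave no T99N call for 4 h over 2 h with all libraries, and of these ARO2 was called higher without the doubted ones (0.48, edgeR adjusted p = 0.022). TRR1 (thioredoxin reductase), PHO8 (vacuolar alkaline phosphatase) and MCD4 (GPI anchor synthesis) were called higher by 0.61, 0.43 and 0.90 (log2, edgeR adjusted p = 0.013, 0.014 and 0.020), calls that were lost without replicate 2 or 3. MCD4 also lost its call on library totals alone (0.86, edgeR adjusted p = 0.053).

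Some members had a lower wild-type mean at 4 h than at 2 h. SIR2, the histone deacetylase of silent chromatin, had the largest fall, with 20.9, 23.04 and 24.8 TPM in T99N at 3 h and 18.4, 17.9 and 15.3 TPM at 4 h, against 37.9, 41.8 and 46.1 TPM at 3 h and 3.37, 3.94 and 3.69 TPM at 4 h in wild type. Every wild-type library of 4 h was also below the wild-type ones of 2 h (11.23 to 12.02 TPM). MSA2, an activator of G1 transcription, averaged 48.5 ± 8.50 TPM in T99N and 11.2 ± 0.97 TPM in wild type at 4 h (SD, n = 3 each). PRP11, a splicing factor gene next to SIR2 on chromosome IV, averaged 14.9 ± 1.49 TPM in T99N and 6.005 ± 0.62 TPM in wild type at 4 h, and CHA1, a serine and threonine deaminase, 33.9 ± 3.16 and 14.3 ± 2.17 TPM in the same groups. None of these 4 was called for 4 h over 2 h in T99N with all libraries (edgeR adjusted p = 0.73, 0.21, 0.62 and 0.69), and MSA2 was called higher without the doubted ones (1.27, edgeR adjusted p = 7e-05).

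ESC8, which acts in silencing, and FRD1, a fumarate reductase, had falls of similar size and kept higher T99N levels. ESC8 averaged 48.4 ± 0.90 TPM in T99N and 16.2 ± 2.29 TPM in wild type at 4 h (SD, n = 3 each), and its T99N value at 4 h was above that at 2 h by 1.42 (log2, SE 0.31, edgeR adjusted p = 0.0060), and by 2.03 without the doubted libraries, while the call was lost without replicate 2 or 3. FRD1 averaged 63.1 ± 8.23 TPM in T99N and 28.7 ± 4.04 TPM in wild type at 4 h and was called there without the doubted libraries (0.90, edgeR adjusted p = 0.0007) but not with all (0.40, edgeR adjusted p = 0.27). QRI7, of mitochondrial tRNA modification, averaged 51.6 ± 4.72 TPM in T99N and 24.3 ± 7.31 TPM in wild type at 4 h. GRX6, a glutaredoxin of the secretory pathway, stood at 909, 657 and 1225 TPM in T99N at 3 h, against 514, 545 and 1493 TPM in wild type, and was the only one of the 10 members with the highest wild-type mean at 3 h whose T99N mean was not lower.

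The selection used no T99N library, so tests within T99N use values that did not choose the genes. All 568 members passed the filter on low counts in that fit, which covered 5454 features. Before copper, from 0 h to 2 h in SPO, 265 members rose and 35 fell (edgeR, adjusted p under 0.05), against 23.5% higher and 21.8% lower over all features tested. Without the doubted libraries it was 239 and 73 members, against 26.1% and 26.4% of all features. The G1/S members were part of this, with 30 of 39 higher and none lower (28 and 2 without the doubted libraries). POL1 was among them, as given above. In wild type, whose 2 h libraries the rule used, the median log2 ratio of 2 h over 0 h on TMM-scaled CPM was 0.41 for members and 0.00 for all coding sequences.

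For 3 h over 2 h in T99N, no feature was called with all libraries (0.0% of features higher and 0.0% lower). At an unadjusted p under 0.05 by edgeR there were 1243 of 5454 features (22.8%, and 11.0% higher) and 179 members, of which 164 were higher. DESeq2 called 398 features, with 47 members higher and 2 lower. Without the doubted libraries edgeR called 255 members higher and 19 lower, against 19.0% and 15.1% of all features, and leaving out only the library labelled T99N 2 h replicate 1 gave 251 higher. Hence 1 library decides this comparison. In it, without the doubted libraries, 33 of 39 G1/S members were higher and 2 lower, and the medians were 0.35 for members and 0.05 for all features (log2).

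For 4 h over 3 h in T99N, the step at which these genes fell in wild type, 51 members rose and 19 fell (edgeR), against 5.34% higher and 9.5% lower of all features. Without the doubted libraries 116 rose and 32 fell, against 10.6% and 12.4%. On library totals alone, with no TMM scaling, 9 were called higher and 38 lower, so the balance of directions at this step rests on the scaling. Of the G1/S members, 10 rose and none fell with all libraries, and 22 rose and none fell without the doubted ones. The members' median was 0.11, and that of the 155 was 0.34 (log2).

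Over the whole interval after copper, 4 h over 2 h in T99N, 204 members rose and 14 fell (edgeR), against 12.6% higher and 14.3% lower of all features. Without the doubted libraries 314 rose and 29 fell, against 21.7% and 21.6%. The members' median was 0.31 (log2), that of the genes risen without the fall 0.15 and that of all features -0.01. The 155 had 98 higher and none lower, with a median of 0.66, and the 1891 genes tested of those risen without the fall had 388 higher and 45 lower. Leaving out replicate 2 or replicate 3 left 18 and 8 members called higher, and of 17 genes named here as called in this comparison, 2 (RNR1 and CLB5) were called without each replicate in turn. Library totals alone gave 122 higher and 7 lower.

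Of the G1/S members, 32 of 39 were higher in that comparison and none lower (36 and none without the doubted libraries). The 15 other genes of the G1/S list had 3 higher and 4 lower. Of the lists drawn up after the data were seen, members called higher were 15 of 30 replication fork genes, 10 of 16 histone and chaperone genes, 8 of 22 glycosylation genes, 8 of 15 ER to Golgi genes and 3 of 8 ER entry genes, with none lower in any. Leaving out the doubted libraries, these became 20, 15, 18, 11 and 7, with 1 replication fork gene lower. The members with the largest T99N ratios at 3 h over 2 h were SPO16, SMC3, PDS5, ESC8 and HMX1, and those with the smallest were YLR030W, ARG3, MCD1, HSL1 and YPR015C. HSL1, a kinase of the morphogenesis checkpoint, was at -0.50 for 4 h over 2 h (edgeR adjusted p = 0.058) and was called lower without the doubted libraries (-0.65, edgeR adjusted p = 0.0021). The uncharacterized YLR030W fell by 0.98 (edgeR adjusted p = 0.012), a call lost without replicate 2 or 3.

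**Figure D4:**
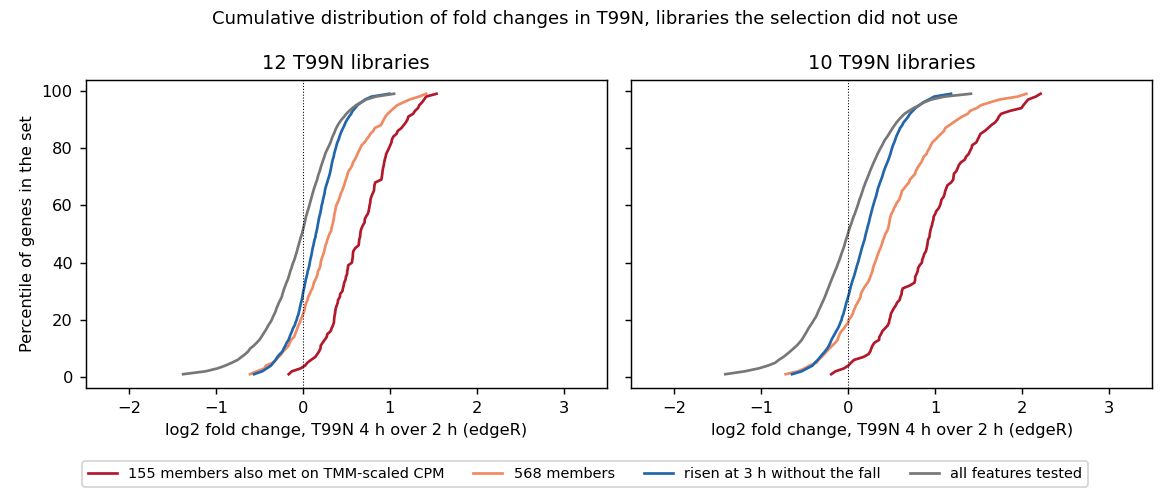
Cumulative distribution of edgeR log2 fold changes in T99N, 4 h over 2 h (x axis), as the percentile of genes in each set (y axis, 1 to 99), with all 12 T99N libraries on the left and without the 2 doubted ones on the right. The curve of the 568 members lies right of that of all features, with medians of 0.31 and -0.01 on the left, and the 155 members that met the rule on both scales lie furthest right, with a median of 0.66.

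The time of the highest T99N mean depended on the scale. On TMM-scaled CPM, 325 of the 568 members had their highest T99N mean at 4 h, 118 at 3 h, 59 at 2 h and 66 at 0 h, while all coding sequences had 1551, 798, 1040 and 2035 at the same times. In TPM the members' counts were 190 at 4 h, 306 at 3 h, 17 at 2 h and 55 at 0 h. The G1/S members peaked at 4 h in 37 of 39 cases on TMM-scaled CPM and in 28 of 39 in TPM. With those 2 libraries left out, these were 34 and 21, and members with their highest mean at 4 h were 295 on TMM-scaled CPM and 161 in TPM.

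At 3 h itself, T99N levels were lower than wild-type ones for most members. In 424 of 568 every T99N library lay below every wild-type library and in none did every one lie above, with 1811 and 981 of 5424 for all coding sequences. The median log2 ratio of T99N over wild type was -0.86 in TPM and -0.73 on TMM-scaled CPM, beside -0.13 and -0.00 for all coding sequences. Among the 155, 136 did not overlap, with medians of -1.35 and -1.23. Since the wild-type libraries of 3 h chose the genes, these values are a description and no test is given.

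At 0 h, where the rule used neither strain, 196 of 567 members tested were higher in T99N than in wild type and 86 lower (edgeR), against 26.1% higher and 26.8% lower of all features tested. The genes risen without the fall had similar shares, 671 of 1891 higher (35.5%) and 338 lower (17.9%), beside 34.6% and 15.2% of members. The members' median was 0.14 (log2). Of the cohesin members, 7 of 8 were higher and none lower. SMC3 had 13.5, 13.9 and 13.8 TPM in T99N at 0 h, against 6.05, 4.81 and 6.82 TPM in wild type, a difference of 0.89 (log2, SE 0.11, edgeR adjusted p = 7e-06). SMC1 was higher by 0.95 (SE 0.10, edgeR adjusted p = 7.9e-07) and PDS5 by 0.67 (SE 0.11, edgeR adjusted p = 7.6e-05). Of the 39 G1/S members, 21 were higher and 2 lower. UME6 itself stood at 131, 148 and 126 TPM in T99N at 0 h, against 24.3, 28.5 and 31.1 TPM in wild type. At 3 h the order was reversed, with 158, 129 and 215 TPM in T99N, against 275, 377 and 803 TPM in wild type. The part of UME6 in the differences between the strains was not tested. Histone genes were among those lower in T99N at 0 h, HHT1 at -1.31 (SE 0.10, edgeR adjusted p = 2.7e-08) and HTB2 at -0.91 (SE 0.13, edgeR adjusted p = 3.1e-05).

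In UB14584, which shares the copper-driven IME1 and IME4 but was not used by the rule, 210 of 567 members were higher at 4 h than at 2 h and 57 lower (edgeR), against 26.6% higher and 26.8% lower of all features. Genes risen without the fall had 982 higher and 59 lower of 1891 tested. These samples skip 3 h, so they do not sample the time of the wild-type peak. SMC3 had 166 and 105 TPM at 4 h and 15.2 and 24.2 TPM at 2 h, a rise of 2.83 (log2, SE 0.28, edgeR adjusted p = 0.00052). CLB5 had 78.7 and 70.2 TPM at 4 h and 9.37 and 19.3 TPM at 2 h, a rise of 2.44 (SE 0.25, edgeR adjusted p = 0.00057). RNR1 had 56.0 and 38.7 TPM at 4 h and 24.9 and 69.3 TPM at 2 h, which overlap (0.09, SE 0.39, edgeR adjusted p = 0.86). Of the G1/S members 23 were higher and 2 lower, and of the cohesin members 7 of 8 were higher. SPO16 had 483 and 507 TPM at 4 h and 3.31 and 9.66 TPM at 2 h.

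At transcript starts, a TL-seq start cluster was assigned to 540 members, and 103 of these were higher at 4 h and 54 lower (limma on log2 normalized reads), against 19.7% higher and 20.5% lower of all clusters. The genes risen without the fall had 676 higher and 69 lower of 1823. CDC21 had 721, 1002 and 1342 normalized reads at 4 h, against 516, 302 and 591 at 2 h, with no overlap (1.13, SE 0.32, limma adjusted p = 0.019), a call lost without replicate 3 (0.83, limma adjusted p = 0.14). MCD1 went the other way, with 8.70, 12.7 and 15.2 normalized reads at 4 h, against 75.8, 31.0 and 93.7 at 2 h (-2.25, SE 0.46, limma adjusted p = 0.0038). MSA2 also fell at its start site, with 145, 249 and 251 normalized reads at 4 h and 1467, 868 and 799 at 2 h (-2.26, SE 0.31, limma adjusted p = 0.00047).

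Ume6 peaks were found near a small share of these genes. A ChIP-seq peak with over 4-fold enrichment in at least 2 of 3 replicates was found within 300 bp of the start site of 42 of 540 members (7.78%), against 304 of 1822 genes risen without the fall (16.7%) and 711 of 5022 genes in all (14.2%). The 155 had 12 of 152 (7.89%). The 42 included SPO16, HOP2, MER1, PDS5, TOS4, CLB5, CLB6, the polymerase epsilon gene POL2, the helicase genes MCM3, MCM5 and MCM6, VRG4, LHS1 (an ER chaperone), GRX6 and HMX1. RNR1, CDC21, POL12, SMC3 and ASF1 had none. The cells of the ChIP-seq were a saturated culture in presporulation medium, so these peaks do not give occupancy after copper. The URS1 core GGCGGC was in the promoter window of 21 members (3.70%), against 152 genes risen without the fall (8.05%) and 4.99% of all promoters.

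A long undecoded transcript isoform (LUTI) is a 5′-extended mRNA from an upstream start, whose upstream open reading frames inhibit translation of its coding sequence. Of 74 candidate LUTI loci, 6 were members. PLM2, a G1/S protein related to TOS4, is on that list of 5′ extensions, although the study does not class it as a LUTI. PLM2 had 124 ± 32.8 normalized TL-seq reads at its distal start at 4 h and 13.3 ± 7.97 at 2 h, and 3.93 ± 0.87 at its proximal start at 4 h and 38.3 ± 18.5 at 2 h (SD, n = 3 each). Its whole-gene level was 6.93 ± 1.65 TPM in T99N and 48.2 ± 9.36 TPM in wild type at 3 h. MCM5, a subunit of the replicative helicase, had higher means at both starts, with 78.9 to 118 reads (mean 96.6) at the distal start at 4 h and 11.9 to 21.9 (mean 15.8) at 2 h, and 268 ± 55.9 at the proximal start at 4 h and 155 ± 64.6 at 2 h. At ERG12, mevalonate kinase, and PMT3, an O-mannosyltransferase of the ER, the proximal start was lower at 4 h (397 ± 28.7 and 240 ± 78.4 reads) than at 2 h (1124 ± 337 and 591 ± 66.8 reads). For such loci the TPM of the coding sequence sums both isoforms. The loci were picked from these same TL-seq libraries, so their direction there is not independent evidence.

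Of 15 promoter motifs searched on both strands, MCB differed most between members and all promoters. At least 2 MCB cores were found in 20 members and in 22 promoters in all, and 25 of the 39 G1/S members had at least 1. The SCB core CACGAAA was in 58 members (10.2%), against 4.62% of all promoters. The stress element AGGGG was in 15.7%, against 22.4% of all, and the Rpn4 site GGTGGCAAA of proteasome genes in 1 member, against 69 promoters in all. The others searched were TTCNNGAA and GAANNTTC (heat shock), CACGTG (E box), TGTGGC (Met31), TTACTAA (Yap1), TTTNNGCTG (Ace1), TTTGCTC (Mac1), TGCACCC (Aft1), TGACTC (Gcn4) and GATGAG (PAC). RNR1, TOS4, CLB5 and CLB6 had no MCB core in the window, which says only that these letters are absent there.

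**Figure D5:**
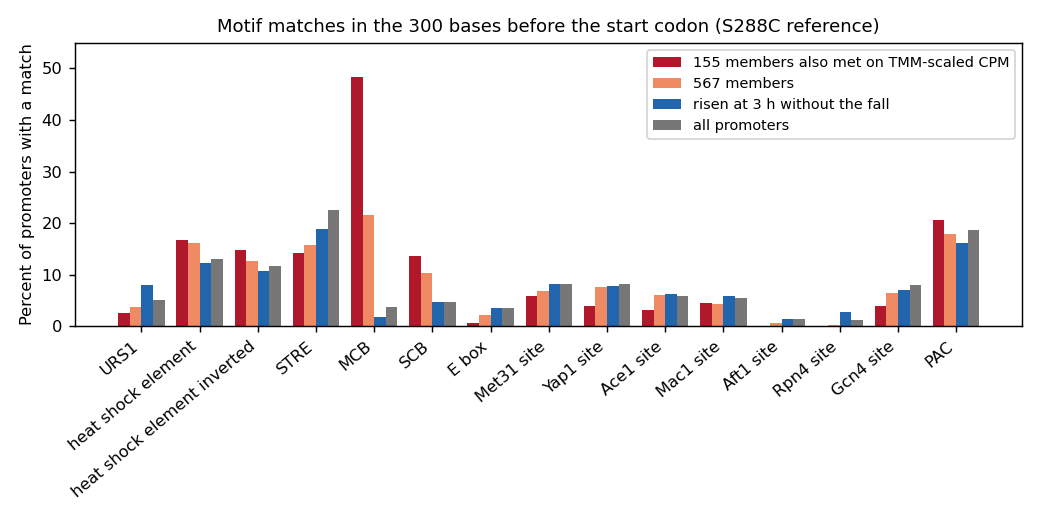
Percent of promoters (y axis, the 300 bases before the start codon in the S288C reference) with at least 1 match to each of 15 motifs (x axis), for the 155 members that met the rule on both scales, all members, the genes risen without the fall and all promoters. MCB stands at 48.4%, 21.5%, 1.75% and 3.70% in that order, and SCB at 10.2% of members and 4.62% of all promoters.

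Members also neighboured each other. Of 275 members with a divergently transcribed neighbour, 78 (28.4%) had one that was itself a member, against 197 of 2555 other coding sequences (7.71%). Such pairs share the DNA between them, so their promoters and MCB counts are not separate cases.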

How the data were processed

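Poly(A) RNA was measured with a directional kit in 24 libraries of UB22629 and UB20649, and in 4 of UB14584. The authors quantified reads with salmon on SK1 coding sequences (PacBio build) and deposited expected counts and TPM. The estimated counts were rounded here, and groups came from the labels. TL-seq values are the deposited signal, reads per start cluster after cutadapt, STAR and CAGEr, divided by the authors by DESeq2 size factors. Whole reads were recovered from them within 0.001 for 100% of values, and edgeR on those reads called 2063 clusters, with 114 members higher and 58 lower. Ume6 ChIP-seq peaks carry fold enrichment as a ratio from macs2, deposited by the authors for each replicate after bowtie2. Deposited fold changes and p-values of comparisons were not used, nor were 12 columns of DESeq2-normalized counts, since expected counts were tested. Totals were 3124472 to 4845107 estimated counts in UB14584 RNA and 3195012 to 8243174 reads in 5038 TL-seq clusters. The strand setting of salmon is not given in the sources used here.

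Tests used edgeR 4.0.16 quasi-likelihood fits with TMM scaling on the 12 T99N libraries (0 h strains and UB14584 apart) after its filter on low counts, and limma 3.58.1 on log2(value + 1) for TL-seq, with Benjamini-Hochberg adjustment at 0.05 over all features, in R 4.3.3 with Python 3.11.15. Tests were checked on simulated data without a doubted library, so the check does not cover that case. In it edgeR recovered 100% of 200 features changed 3-fold and limma 97% of 200 clusters changed 4-fold, with 6.54% and 2.51% of calls false. The spread between simulated libraries was set and not estimated from these data. Smaller changes were not simulated, so the check does not give the recovery for them. DESeq2 1.42.0, other scalings, filters, replicate blocks and left-out libraries were alternatives. The TL-seq fit has no replicate term. Same-numbered TL-seq deviations correlated at 0.160, 0.169 and 0.387, and differently numbered ones at -0.349 to 0.268. Whether the numbers pair the samples is therefore not settled. A fit with the replicate block called 135 members higher and 72 lower. The members and lists were chosen with earlier results of these data known. Genes named are those with the 10 highest wild-type levels, the 10 largest rises and falls, the 5 largest and smallest T99N ratios, list members, neighbours of the thresholds, and IME1, IME4, UME6 and CUP1 as checks. PLM2, ERG12, CTR1 and the genes named from lists drawn up after the data were seen (cohesin, histones, glycosylation, ER) are outside that rule and were chosen after their values were seen.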

Additional observations from a re-analysis of the deposited data

Results flagged for a closer look

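In 174 of 568 members on TMM-scaled CPM, every wild-type library of 4 h lay below every one of 3 h while every T99N library of 4 h lay above every one of 3 h, so that the strains moved in opposite directions. Among the 39 members of the G1/S list this was so for 31. In TPM the counts were 51 and 15. Over all coding sequences they were 235 on TMM-scaled CPM and 93 in TPM. In TPM, 132 members had every T99N library of 4 h below every one of 3 h and 51 had every one above. On TMM-scaled CPM it was 51 below and 186 above, so the T99N direction of the members depends on the scale. Of the G1/S members, 0 had every T99N library of 4 h below on either scale. The difference between the strains was not tested, and the rule for choosing the genes fixed the wild-type direction.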

How the results depend on the processing

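No called value of a single gene tested changed sign, while HSL1 for T99N 4 h over 3 h, not called, lay on both sides of 0 (0.17 without the doubted libraries). On library totals alone the balance at that step turned, with 9 members higher and 38 lower, against 51 and 19. The counts below are features called, then members called higher. For T99N 3 h over 2 h (0 and 0), DESeq2 gave 398 and 47, all 24 libraries in 1 fit 248 and 30, leaving out both doubted libraries 1862 and 255, leaving out only T99N 2 h replicate 1 1681 and 251, and leaving out each replicate number 0 to 1602 and 0 to 228. For 4 h over 3 h (809 and 51), leaving out both gave 1255 and 116, only the 2 h one 1343 and 135, and each replicate 100 to 869 and 4 to 69, while DESeq2 gave 90 members. For 4 h over 2 h (1469 and 204) these were 2366 and 314, 2206 and 312, and 95 to 1902 and 8 to 278, with 122 members on library totals alone. For 2 h over 0 h (2469 and 265) each replicate gave 1433 to 2374 features, and without the 2 h one 2693. T99N over wild type at 0 h (196 members) gave 114 to 192. TL-seq (2025 clusters, 103 members) gave 1059 to 2270 and 43 to 127, and 1205 clusters in the second table of replicates 4 and 5. A log2 change of at least 1 left 172 and 7 for 4 h over 3 h, 206 and 43 for 4 h over 2 h, 600 and 89 for 2 h over 0 h, 368 and 22 for the strains at 0 h, and 1366 and 88 in UB14584 RNA. Members with a Ume6 peak (42) were 25 within 150 bp, 76 with any called peak and 28 to 40 without a replicate. The rule gave 351 genes in every replicate number alone and 155 on TMM-scaled CPM. With TL-seq replicates paired as a block, 2397 clusters and 135 members were called, and the calls of CDC21, MCD1 and MSA2 stayed. In RNA, too, the numbers were not shown to pair samples. There a replicate block gave 0, 776, 1418 and 2438 features for the T99N comparisons 3 h over 2 h, 4 h over 3 h, 4 h over 2 h and 2 h over 0 h, 2631 for the strains at 0 h and 2802 in UB14584. Leaving out a replicate of UB14584 RNA was not run because it leaves no residual degrees of freedom. Leaving out doubted libraries was chosen after seeing the data, and the causes were not tested.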
